A study of Mus musculus with 6 samples.

Results

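The genes described here are 10 genes that mark the alveolar macrophage, the resident phagocyte of the air spaces: Pparg, Marco, Siglecf, Chil3, Ear2, Mrc1, Plet1, Krt79, Atp6v0d2 and Itgax. They were chosen as a list of known markers, with earlier results of these data known. The list was matched by gene symbol in a count table of 56262 genes and followed in RNA-seq of whole mouse lung. All 10 passed the filter on low counts, which left 17120 genes for testing. The study compared lungs of homozygous RBM47 K329R;K332R knock-in mice (R/R, n = 3) with lungs of their wild-type littermates (WT, n = 3). The line was made with CRISPR/Cas on the C57BL/6 background, and both groups were 8 weeks old and untreated. The knock-in replaces a pair of lysines of the RNA-binding protein RBM47 to which, in the mouse protein, ISG15 is attached. It is carried by every cell of the body, so it is not restricted to macrophages.

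Alveolar macrophages take up inhaled particles, microbes and spent surfactant. They mature under GM-CSF, released by the alveolar epithelium, and TGF-β, which together switch on the nuclear receptor PPARγ, and PPARγ in turn maintains their lipid metabolism and their surface phenotype. Other cells use some of the same genes: eosinophils carry Siglec-F, dendritic cells carry CD11c, and interstitial macrophages and lymphatic endothelium carry the mannose receptor.

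Each library held between 16501092 and 18141067 counted read pairs. Levels are given as CPM, counts scaled to library size with TMM factors, and fold changes as log2 of R/R over WT with their standard error. A gene was called when its adjusted p in edgeR's quasi-likelihood test was under 0.05 over all genes tested. That test called 300 genes, 111 higher in R/R and 189 lower, and 51.2% of the genes tested had a higher fitted level in R/R. Rbm47 itself stood at 33.4 ± 0.712 CPM in R/R and 31.2 ± 2.89 CPM in WT (SD, n = 3), with an adjusted p of 0.660 in edgeR, and since a change of coding sequence need not alter its count, this does not check the genotype. In whole lung RNA, more cells of a type and more RNA per cell cannot be told apart.

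All 10 alveolar macrophage genes had a higher mean level in R/R than in WT. Their log2 fold changes had a median of 0.38 and ranged from 0.22 for Marco to 0.78 for Krt79. The median over all genes tested was 0.0045. Chil3 and Mrc1 rose in R/R, so 2 of the 10 were called higher, where 0.648% of all genes tested were. None was called lower, where 1.1% of all genes were. The unadjusted p was under 0.05 in 9 of the 10, all but Marco, against 6.54% of all genes higher at that level. Every R/R lung stood above every WT lung for 8 of the 10, all but Marco and Plet1, against 9.17% of all genes tested. The 10 genes are not independent of each other, since they mark 1 cell type. The list was also chosen with earlier results of these data known, so these shares do not test it. Summed over the 10 genes, the level was 1099, 954 and 1047 CPM in R/R 1 to 3 and 622, 642 and 846 CPM in WT 1 to 3. The groups did not overlap in this sum, and WT 3 stood closer to R/R 2 than to the other WT lungs. Most of the sum in each lung came from Chil3, at 665, 582 and 628 CPM in R/R 1 to 3 and 341, 340 and 489 CPM in WT 1 to 3.

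**Figure D1:**
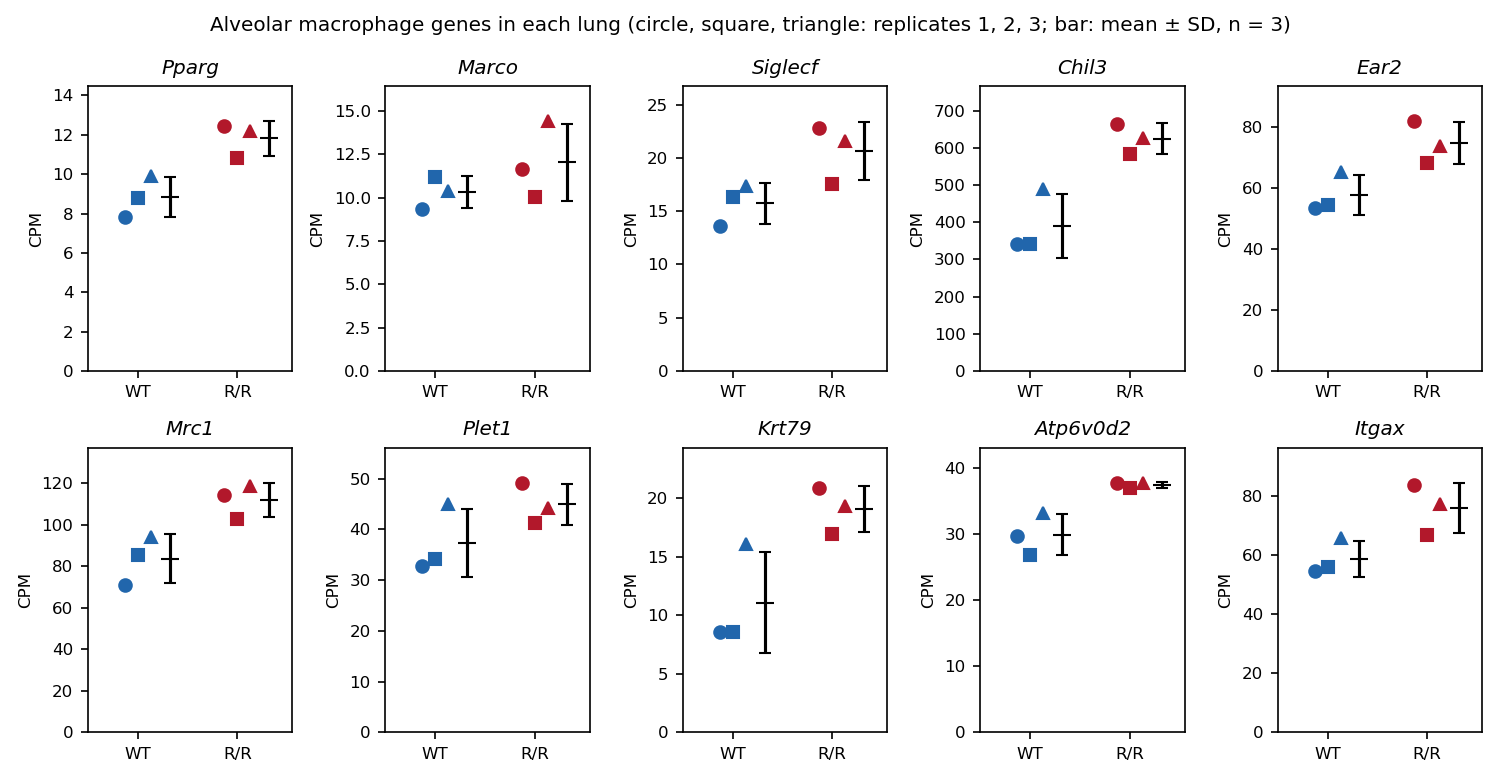
Level of each alveolar macrophage gene in CPM (vertical axes, from 0) in 3 WT lungs (blue) and 3 R/R lungs (red); circles, squares and triangles are replicates 1, 2 and 3, and bars are the mean ± SD. The groups are apart for 8 genes and overlap for Marco and Plet1, and WT 3 is the highest WT lung in 9 of 10 panels.

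Chil3 encodes the chitinase-like protein Ym1, which alveolar macrophages secrete in large amounts. It is counted at chr3:106147554-106167564 on the minus strand (mm10, as all gene positions here). Its level was 665, 582 and 628 CPM in R/R 1 to 3 and 341, 340 and 489 CPM in WT 1 to 3. The lowest R/R lung was above the highest WT lung, and WT 1 and WT 2 were almost equal while WT 3 lay between them and the R/R lungs. The fitted difference was 1.60-fold (log2 0.68 ± 0.12 SE, 95% interval 0.41 to 0.95, adjusted p = 0.0233 in edgeR). A single gene tested over 3 against 3 lungs by an exact two-sided permutation test cannot go below p = 0.1, which is what Chil3 gave.

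Mrc1 encodes the mannose receptor CD206, an endocytic receptor for glycoproteins (chr2:14229392-14332057, plus strand). Its level was 114, 103 and 119 CPM in the R/R lungs and 70.9, 85.7 and 94.2 CPM in the WT lungs. The groups were apart, with R/R 2 the lowest of the R/R lungs and WT 3 the highest of the WT lungs. The difference was 1.34-fold (log2 0.42 ± 0.09 SE, interval 0.22 to 0.63, adjusted p = 0.0486 in edgeR), close to the threshold. Over the 6 fits that each left out 1 lung, the adjusted p in edgeR ran from 0.0093 to 0.151 for Mrc1 and from 0.000112 to 0.0973 for Chil3. In both genes the lowest of these values came without WT 3, and each of the other 5 fits gave a value over 0.05.

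The sequences before the starts of these called genes are shown because they differ in matches to GAGGAA, a sequence bound by PU.1. PU.1 is a transcription factor of the macrophage lineage, and other sequences that it may bind were not searched. The 250 bases before the RefSeq transcript start (GRCm38.p6) are printed in the direction of transcription, with matches to GAGGAA or its reverse complement in capitals. Mrc1 lies at chr2:14229164-14229413 on the plus strand and Chil3 at chr3:106167565-106167814 on the minus strand.
Mrc1: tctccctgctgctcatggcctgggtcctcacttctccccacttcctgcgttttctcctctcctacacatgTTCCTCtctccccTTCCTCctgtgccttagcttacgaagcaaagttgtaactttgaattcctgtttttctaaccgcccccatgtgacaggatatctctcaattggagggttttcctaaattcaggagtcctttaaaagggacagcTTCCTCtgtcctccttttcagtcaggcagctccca
Chil3: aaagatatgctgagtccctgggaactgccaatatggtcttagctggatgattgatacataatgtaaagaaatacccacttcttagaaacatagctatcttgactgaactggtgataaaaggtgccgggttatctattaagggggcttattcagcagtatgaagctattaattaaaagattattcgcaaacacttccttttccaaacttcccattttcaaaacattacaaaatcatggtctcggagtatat

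Mrc1 held 3 matches in this window and Chil3 held 0, which does not show that Chil3 lacks a PU.1 site. RefSeq gave a promoter for 9 of the 10 genes, all but Atp6v0d2. GAGGAA on either strand was found for 4 of these 9 (Pparg, Marco, Siglecf and Mrc1) and in 23.3% of all 32851 promoters. A gene counted if any of its promoters matched, whereas the shares are per promoter. Pparg had 1 GAGGAA match over 3 promoters. The nuclear receptor half-site AGGTCA was found for 2 (Pparg, which has 3 promoters, and Plet1) and in 14% of all promoters. The STAT6 pattern, TTC and GAA with 4 bases of any kind between them, was found for 1 (Itgax) and in 5.85% of all, and the E-box CACGTG for 0 and in 6.02% of all. These letters are not shared by the whole list, and a match describes the sequence only. The genes with a GAGGAA match had log2 fold changes between 0.22 and 0.42.

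Pparg encodes the nuclear receptor PPARγ on which alveolar macrophage identity depends (chr6:115360951-115490399, plus strand). Its level was 12.4, 10.8 and 12.2 CPM in the R/R lungs and 7.83, 8.78 and 9.89 CPM in the WT lungs. The groups did not overlap, although the gap between R/R 2 and WT 3 was under 1 CPM. The log2 fold change was 0.42 ± 0.13 SE (interval 0.13 to 0.70), about the size of that of Mrc1 at a lower count, and the adjusted p in edgeR was 0.154.

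Among the surface receptors, Siglecf encodes an inhibitory receptor for sialic acids that separates alveolar from interstitial macrophages (chr7:43351341-43359531, plus strand). Its level was 22.8, 17.5 and 21.6 CPM in the R/R lungs and 13.6, 16.3 and 17.3 CPM in the WT lungs. R/R 2 was barely above WT 3, and the other R/R lungs stood clear of all WT lungs. R/R exceeded WT by log2 0.39 ± 0.12 SE (adjusted p = 0.159 in edgeR). Itgax encodes CD11c, an integrin chain that alveolar macrophages share with dendritic cells (chr7:128129547-128150657, plus strand). It stood at 83.9, 66.8 and 77.5 CPM in the R/R lungs and 54.8, 56.0 and 65.9 CPM in the WT lungs. Again R/R 2 and WT 3 nearly met, and the groups did not overlap. The log2 fold change was 0.37 ± 0.09 SE (adjusted p = 0.0770 in edgeR).

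Marco encodes a scavenger receptor for bacteria and dust (chr1:120474538-120505024, minus strand), and it differed least. Its level was 11.7, 10.04 and 14.4 CPM in the R/R lungs and 9.35, 11.2 and 10.4 CPM in the WT lungs. R/R 2 fell below both WT 2 and WT 3, and R/R 3 alone stood well above the WT range. The log2 fold change was 0.22 ± 0.15 SE with an interval from −0.10 to 0.54 (adjusted p = 0.551 in edgeR), which includes both no difference and one as large as that of Mrc1.

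Ear2 encodes a secreted ribonuclease of the eosinophil-associated family (chr14:44102654-44103534, plus strand). Its level was 81.9, 68.3 and 73.8 CPM in the R/R lungs and 53.6, 54.4 and 65.2 CPM in the WT lungs. The groups did not overlap, with WT 3 above the other WT lungs, as in Chil3. On the log2 scale the difference was 0.37 ± 0.09 SE (adjusted p = 0.0660 in edgeR). The Ear genes are near-identical copies, so read pairs that matched several of them were not counted. The first 90 coding bases of Ear2 and the copies Ear1 and Ear10, all on chromosome 14 (GENCODE transcripts, GRCm38), are shown for how few bases tell them apart, with the bases that differ from Ear2 in capitals.
Ear2: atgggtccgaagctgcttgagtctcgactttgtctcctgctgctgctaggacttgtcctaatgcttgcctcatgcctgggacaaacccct
Ear1: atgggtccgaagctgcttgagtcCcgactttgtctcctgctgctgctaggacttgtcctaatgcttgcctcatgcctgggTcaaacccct
Ear10: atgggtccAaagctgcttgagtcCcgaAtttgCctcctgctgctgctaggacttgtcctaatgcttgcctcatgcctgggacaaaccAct

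Ear1 differed from Ear2 at 2 of these 90 bases and Ear10 at 5. Over the aligned coding sequence Ear2 was identical to Ear1 at 95.7% of 465 bases and to Ear10 at 97.01% of 468 bases. Stretches of 150 bases, the read length, that were exactly shared with another gene made up 6.32% of those in the Ear2 transcripts. Ear1, also an alveolar macrophage ribonuclease, stood at 17.4, 13.1 and 13.6 CPM in the R/R lungs and 11.7, 12.3 and 19.6 CPM in the WT lungs. Its groups overlapped completely and its highest lung was WT 3, with a log2 fold change of 0.02 ± 0.19 SE (interval −0.39 to 0.42, adjusted p = 0.982 in edgeR). Ear10 held 1 to 3 read pairs per lung, Ear6, an eosinophil gene, 0 to 5, and Ear14 held 0 in every lung. The difference between Ear2 and Ear1 was not tested, and how pairs were split between the copies was not tested either. The nearest copy of Chil3, Chil4, which is 95.39% identical over 1194 coding bases, held 0 counts in every lung, and none of the 150-base stretches of Chil3 was shared with another gene.

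Krt79, a type II keratin found in skin and also listed as a marker of mouse alveolar macrophages, had the largest fold change (chr15:101929332-101940324, minus strand). Its level was 20.8, 16.9 and 19.3 CPM in the R/R lungs and 8.56, 8.55 and 16.04 CPM in the WT lungs. WT 1 and WT 2 were almost equal, and WT 3 was almost as high as R/R 2. The difference was 1.72-fold (log2 0.78 ± 0.21 SE), and the adjusted p was 0.0900 in edgeR. Over the 6 fits that each left out 1 lung, the log2 fold change ran from 0.62 to 1.15 and the adjusted p in edgeR from 0.000745 to 0.301. Krt79 was called only without WT 3, its highest WT lung, where the log2 fold change was 1.15 and the adjusted p 0.000745.

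Atp6v0d2 encodes a subunit of the proton pump that acidifies lysosomes in macrophages and osteoclasts (chr4:19876841-19922605, minus strand). It was the steadiest of the genes within R/R, at 37.7, 36.9 and 37.7 CPM, and stood at 29.7, 26.9 and 33.1 CPM in the WT lungs. The groups were apart, with a log2 fold change of 0.32 ± 0.08 SE (adjusted p = 0.0882 in edgeR). Plet1 encodes a surface protein of alveolar macrophages and some epithelia (chr9:50494525-50505482, plus strand). Its level was 49.2, 41.2 and 44.2 CPM in the R/R lungs and 32.9, 34.1 and 45.0 CPM in the WT lungs. WT 3 was above R/R 2 and R/R 3, so the groups overlapped. The log2 fold change was 0.27 ± 0.11 SE (adjusted p = 0.314 in edgeR). Over the 6 fits that each left out 1 lung, it ran from 0.18 to 0.42 and the adjusted p in edgeR from 0.0257 to 0.700. Plet1 was called only without WT 3, its highest WT lung, at log2 0.42 and 0.0257. Of its 1947 exon bases, 261 (13.4%) also belong to the antisense gene Plet1os, and as the counting did not use strand, reads there cannot be assigned. Plet1os held 16 to 34 read pairs per lung.

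Levels of different genes were compared as TPM, which divides the counts by exon length before scaling to library size. Chil3 led with 1271 ± 108 TPM in R/R and 817 ± 156 TPM in WT (SD, n = 3), followed by Ear2 with 345 ± 37.9 and 275 ± 23.4 TPM. Plet1 came next at 76.5 ± 8.18 TPM in R/R and 65.6 ± 9.85 TPM in WT, then Mrc1 at 58.3 ± 5.36 and 44.9 ± 5.41 TPM. Itgax (52.6 ± 6.95 TPM in R/R) and Atp6v0d2 (45.7 ± 1.53 TPM) formed the middle of the order, and Siglecf (24.6 ± 3.76 TPM) and Marco (20.8 ± 4.14 TPM) stood lower. Pparg and Krt79 were the lowest, both at 13.3 TPM in R/R, with 10.2 and 7.93 TPM in WT. The order was the same in both groups, except that Pparg and Krt79 were equal to 3 digits in R/R. The ranges of mean ± SD overlapped in both groups for the neighbours Mrc1 and Itgax, Itgax and Atp6v0d2, Siglecf and Marco, and Pparg and Krt79. Within single lungs, Itgax was above Atp6v0d2 and Siglecf above Marco in all 6, narrowly for Siglecf in WT 1 and WT 2. Mrc1 was above Itgax in all but WT 1, and Pparg above Krt79 in all but R/R 1 and WT 3. The order of Mrc1 and Itgax, and of Pparg and Krt79, therefore differed between lungs.

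The lungs ranked alike for most of the 10 genes. The median deviation of the 10 from their means over the 6 lungs, on the log2 CPM scale, was 0.31, 0.07 and 0.26 in R/R 1 to 3 and −0.34, −0.25 and −0.01 in WT 1 to 3. R/R 2 was the lowest R/R lung for all 10 genes, and R/R 1 the highest for 7 and R/R 3 for 3. WT 3 was the highest WT lung for 9 genes, all but Marco, and WT 1 was the lowest for 7. The genes with the profile most like this median over the 6 lungs, among 15695 genes with at least 1 CPM on average, were Cbx7 (Pearson r = 0.994), Sfrp1 (0.990), Clu (0.989), Fpr1 (0.989) and Elmo3 (0.988). These r values are descriptions over 6 lungs that share the difference between genotypes. Of these, Sfrp1, a secreted Wnt antagonist, rose by log2 0.79 ± 0.16 SE (adjusted p = 0.0381 in edgeR), and Clu, a secreted chaperone, rose by 0.40 ± 0.08 SE (adjusted p = 0.0314). Fpr1, a formyl peptide receptor of phagocytes, was higher by log2 0.52, with adjusted p = 0.0673 in edgeR. Cbx7 (log2 0.21, adjusted p = 0.142 in edgeR) and Elmo3 (0.11, 0.524) were not called.

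**Figure D2:**
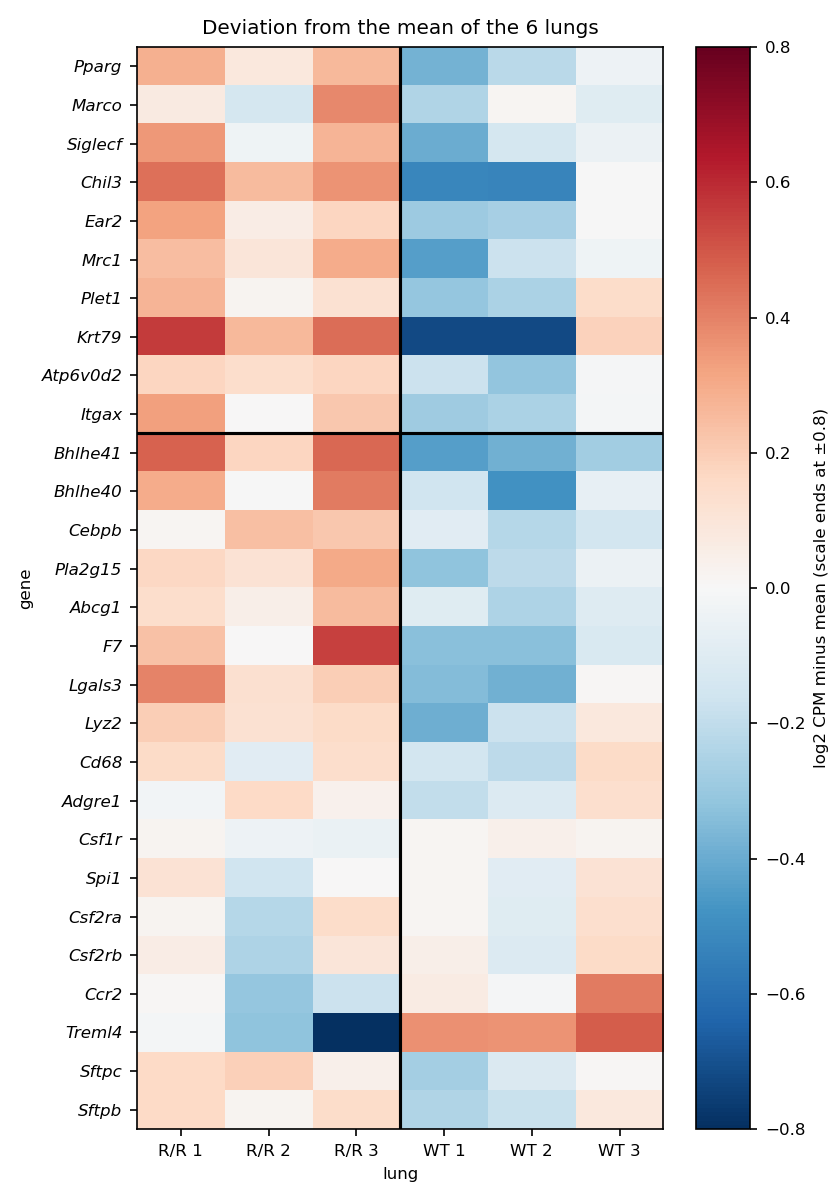
Log2 CPM minus the mean of the 6 lungs (colour, red higher and blue lower) for the 10 alveolar macrophage genes, above the line, and 18 genes of other lists. The R/R lungs are mostly red and WT 1 and WT 2 blue for the 10 genes, WT 3 is close to the mean for most of them, and Csf1r, Spi1, Csf2ra and Csf2rb do not show this pattern.

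The list of the GM-CSF and TGF-β axis held 16 genes, all tested, of which Bhlhe41 and Cebpb rose and none fell. Over the 16 genes 7 were higher and 9 lower (median log2 fold change −0.02). Bhlhe41, a repressor that alveolar macrophages need together with its relative Bhlhe40, was at 24.2, 19.6 and 23.9 CPM in the R/R lungs and 12.8, 13.4 and 14.3 CPM in the WT lungs. Here WT 3 stood with the other WT lungs, unlike in Chil3, Krt79 and Plet1. The log2 fold change was 0.74 ± 0.11 SE (adjusted p = 0.0089 in edgeR), and it was called in each of the 6 fits that left out 1 lung. Bhlhe40 had a log2 fold change of 0.47 ± 0.12 SE (adjusted p = 0.0714 in edgeR). Cebpb, a transcription factor of macrophage and granulocyte differentiation, was at 112, 131 and 128 CPM in the R/R lungs and 104, 94.3 and 99.9 CPM in the WT lungs. It did not follow the order of the lungs seen in the 10 genes, since R/R 2 was its highest lung (log2 0.32 ± 0.07 SE, adjusted p = 0.0491 in edgeR). With 1 lung left out, Cebpb was called only without R/R 1, and its adjusted p in edgeR ran up to 0.191 without WT 2. The receptor chain Csf2ra (log2 −0.03, adjusted p = 0.932 in edgeR) and the TGF-β genes Tgfb1 (−0.07, 0.708) and Tgfbr2 (0.01, 0.978) did not pass. The same held for Nr1h3, the oxysterol receptor LXRα (−0.08, 0.790).

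Of 15 PPARγ targets and lipid-handling genes, all tested, Pla2g15 rose and none fell. Of the 15, 11 were higher and 4 lower, and the median log2 fold change was 0.15. Pla2g15, the lysosomal phospholipase that degrades surfactant phospholipid in alveolar macrophages, was at 56.9, 55.1 and 62.8 CPM in the R/R lungs and 40.6, 44.0 and 49.2 CPM in the WT lungs. Its groups were apart (log2 0.38 ± 0.08 SE, adjusted p = 0.0431 in edgeR). With 1 lung left out, Pla2g15 was called only without WT 3, at 0.0111, and stood at up to 0.164 without WT 1. The cholesterol exporter Abcg1 (log2 0.30, adjusted p = 0.0558 in edgeR) and the lipase Lpl (0.26, 0.161) were higher in every R/R lung but did not pass. The fatty acid transporter Cd36, at 1319 CPM in R/R the most abundant by TPM, had a log2 fold change of 0.15 (adjusted p = 0.401 in edgeR). The lipid droplet coat gene Plin2 (0.09, 0.761) and the fatty acid binding protein gene Fabp5 (−0.07, 0.826) did not pass.

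Other markers of alveolar macrophages numbered 15, of which 14 were tested and none was called. Of the 14, 11 were higher and 3 lower, and their fold changes had a median of log2 0.21. The unadjusted p in edgeR was under 0.05 for 5 of the higher ones, against 6.54% of all genes higher at that level. This list too was chosen with earlier results known, so the share does not test it. Many are also made by lung epithelium or endothelium. Cd9, a tetraspanin, had a log2 fold change of 0.23 (adjusted p = 0.125 in edgeR), Krt19, a keratin of epithelia, 0.35 (0.0794) and Epcam, an epithelial adhesion molecule, 0.22 (0.310). Car4, a carbonic anhydrase that lung capillary cells also carry, had a log2 fold change of −0.10 (0.533). The other tested genes of this list, Ear1 aside, were named after their values were seen, and they were mixed. Log2 fold changes were 0.54 for F7, 0.38 for Trem2, 0.36 for Atp10a, 0.33 for Ltc4s and 0.20 for Slc39a2. Slc7a2 had 0.15, Ctsk 0.08, Kcnip4 −0.05 and Il1rn −0.21.

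Of 14 genes that macrophages in general carry, all tested, 10 were higher and 4 lower, and the median log2 fold change was 0.14, and Lgals3 alone was called. Lgals3 encodes galectin-3, a lectin abundant in macrophages and in some epithelial cells, and stood at 120, 99.2 and 104 CPM in the R/R lungs and 71.4, 69.8 and 91.7 CPM in the WT lungs. Its groups were apart and WT 3 was again the highest WT lung (log2 0.47 ± 0.10 SE, adjusted p = 0.0447 in edgeR). Among the fits with 1 lung left out, Lgals3 was called without WT 3, at 0.0030, and in no other, with up to 0.183 without WT 1. Lyz2, the lysozyme of macrophages and type II alveolar cells, was at 5292, 5029 and 5131 CPM in the R/R lungs and 3517, 4095 and 4898 CPM in the WT lungs (log2 0.30 ± 0.11 SE, adjusted p = 0.221 in edgeR). The cathepsin genes Ctsd (0.16, 0.325) and Ctsb (0.15, 0.340) and the receptor gene Axl (0.08, 0.618) did not pass. Csf1r, the receptor that monocytes and all lung macrophages carry, was at 171, 164 and 163 CPM in the R/R lungs and 170, 173 and 171 CPM in the WT lungs, with a log2 fold change of −0.05 ± 0.05 SE (interval −0.17 to 0.07).

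**Figure D3:**
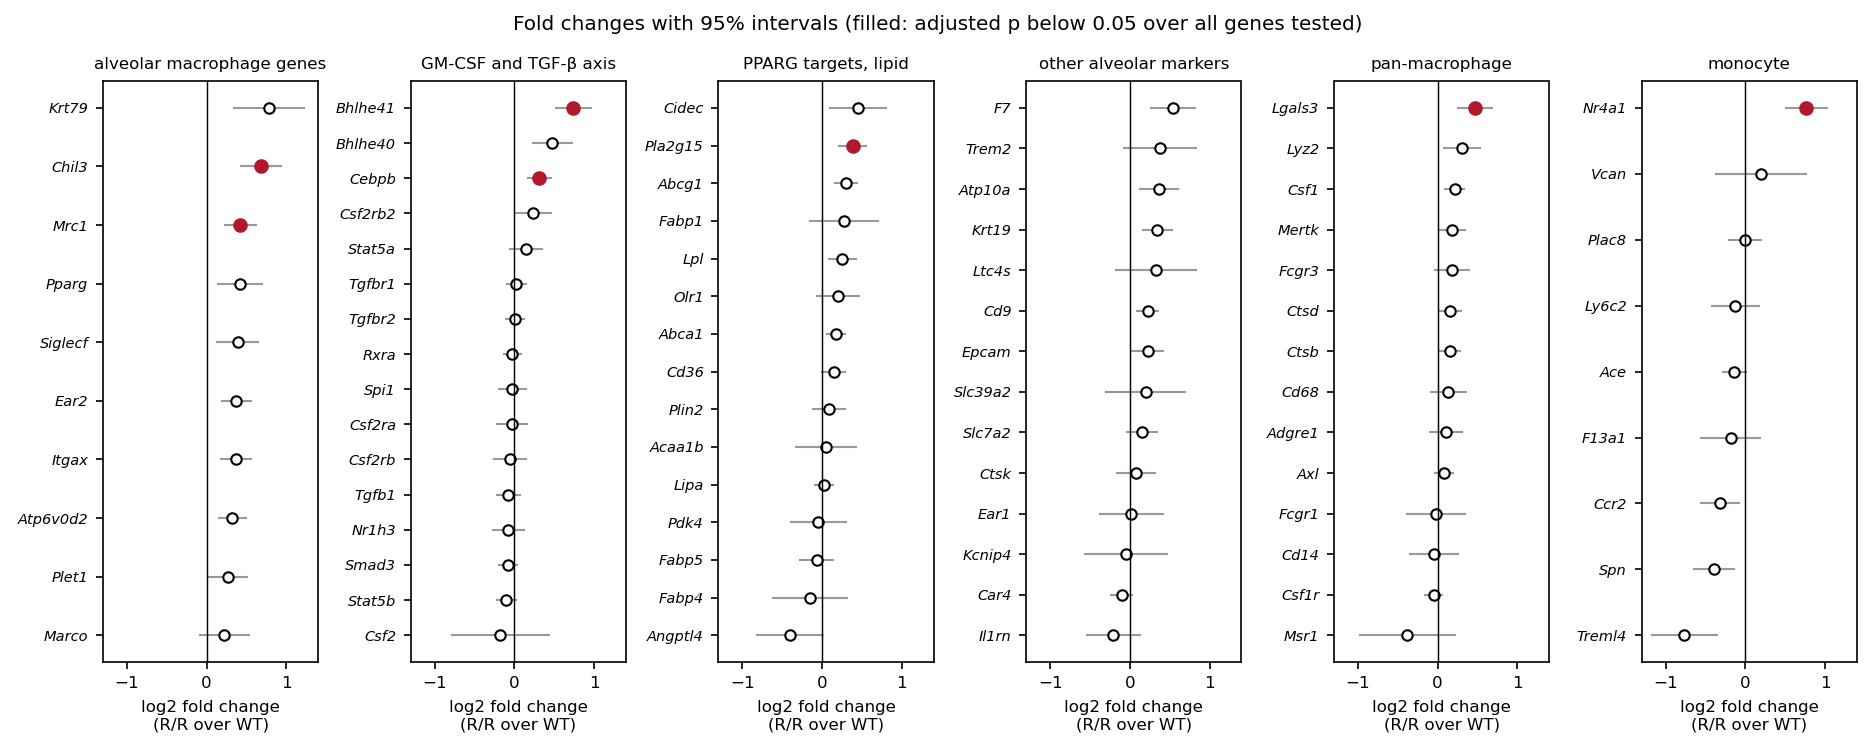
Log2 fold change of R/R over WT (horizontal axes) with its 95% interval for every tested gene of 6 lists, sorted within each list; filled points have an adjusted p under 0.05 over all genes tested. All 10 alveolar macrophage genes lie to the right of 0, whereas 7 of 16 genes of the GM-CSF and TGF-β axis and 2 of 9 monocyte genes do.

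Cell types that share some of these markers gave the following values. Of 7 eosinophil genes, 3 could be tested, all 3 with a lower mean in R/R and none called, and the defining granule genes Epx, Prg2 and Prg3 were near 0 and not tested. The 7 summed to 4.18 to 5.56 CPM in R/R and 6.02 to 7.29 CPM in WT. A link with the higher Siglecf and Ear2 was not tested. The most abundant of them, Alox15 and Ccr3, had log2 fold changes of −0.21 and −0.36. Il5ra, named after its values were seen, had the largest difference (−0.94, adjusted p = 0.133 in edgeR), with every R/R lung below every WT lung. These 3 genes held 15 to 48 read pairs per lung. Of 10 dendritic cell genes, which bear on Itgax, 4 were higher, 6 lower and none called, and the sums overlapped at 469 to 534 CPM in R/R and 477 to 499 CPM in WT. H2-Ab1 (log2 0.15, adjusted p = 0.369 in edgeR) and Clec9a (−0.07, 0.767) were the most abundant by TPM. Of 11 tested interstitial macrophage genes, which bear on Mrc1, 7 were higher, 4 lower and none called. Their sums overlapped at 1164 to 1324 CPM in R/R and 1149 to 1198 CPM in WT, with log2 fold changes of −0.03 for Apoe (adjusted p = 0.914 in edgeR) and 0.39 for Lyve1 (0.156), and these genes together made up most of the sum. The complement genes C1qa, C1qb and C1qc, named after their values were seen, were higher in every R/R lung than in any WT lung, with log2 fold changes of 0.26, 0.35 and 0.32 (adjusted p = 0.240, 0.164 and 0.197 in edgeR). Cx3cr1 (−0.50, 0.164) and Tmem119 (−0.27, 0.0995), named in the same way, were lower in every R/R lung than in any WT lung. Of the 11 tested interstitial genes, 4 had every R/R lung above every WT lung and 2 had every R/R lung below. Over all genes tested, 9.17% had every R/R lung above. Folr2, which marks one subset of interstitial macrophages, was not tested. Of 5 tested lymphatic endothelial genes, all had a mean at or above WT and none was called, with log2 fold changes of 0.0045 for Pdpn and 0.17 for Flt4.

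Adipose genes, which bear on Pparg, were near 0 in most lungs. Cfd was the only one of 7 tested, Adipoq and the others were too low, and the 7 summed to 0.999, 2.33 and 11.7 CPM in R/R 1 to 3 and 0.304, 1.05 and 12.9 CPM in WT 1 to 3. The highest lungs in this sum were 1 of each genotype. Pparg was higher in every R/R lung, and a part of adipose tissue in its level was not tested. Cfd had a log2 fold change of 0.22 ± 1.13 SE, and Cidea was not tested. Squamous genes, which bear on Krt79, summed to 4.42 to 5.44 CPM in R/R and 4.86 to 7.79 CPM in WT. The basal keratins Krt5, Krt14 and Krt6a were at or near 0, and Krt10 (log2 −0.18) and Sprr1a (−0.50) were lower in mean and not called.

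Most monocyte genes had a lower mean in R/R lungs. Of 9 tested, 2 were higher and 7 lower, and the median log2 fold change was −0.14. Nr4a1 alone was called. Nr4a1, a transcription factor that patrolling monocytes need and that many cells switch on early after stimulation, rose from 41.4, 44.4 and 45.8 CPM in the WT lungs to 58.9, 90.5 and 74.2 CPM in the R/R lungs. It was higher in every R/R lung than in any WT lung, most in R/R 2, the lung with the lowest alveolar macrophage genes of that group (log2 0.76 ± 0.12 SE, adjusted p = 0.0148 in edgeR). Nr4a1 lost its call without WT 1, at 0.0669, and kept it without each other lung. Ace (log2 −0.14, adjusted p = 0.417 in edgeR), which endothelium also makes, and Plac8 (−0.0044, 0.992) did not pass. The monocyte genes Treml4 (−0.76, 0.0761), Spn (−0.39, 0.153) and Ccr2 (−0.32, 0.216), named after their values were seen, had lower means in R/R and did not pass, with groups that did not overlap for Treml4. Of 7 tested neutrophil genes, all were lower in mean and none was called, and S100a8 and S100a9 each had a log2 fold change of −1.19 (adjusted p = 0.199 and 0.191 in edgeR). The neutrophil sum was 111, 80.5 and 81.4 CPM in R/R 1 to 3 and 223, 81.7 and 214 CPM in WT 1 to 3, so WT 1 and WT 3 were high and WT 2 was not.

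Most epithelial genes had a higher mean in R/R lungs, and their part in the results above was not tested. Of 11 tested, 10 were higher and 1 lower, and the median log2 fold change was 0.21. Every R/R lung stood above every WT lung for 3 of the 11, against 9.17% of all genes tested. Aqp5, a water channel of alveolar type I cells, was the one that was called (log2 0.27 ± 0.06 SE, adjusted p = 0.0459 in edgeR), and with 1 lung left out it was called only without WT 3, at 0.0298, and stood at up to 0.198 without WT 1. Scgb1a1 of club cells had a log2 fold change of 0.31 (adjusted p = 0.398 in edgeR) and Sftpc of type II cells 0.25 (0.271). Summed, the epithelial genes stood at 36599, 39608 and 38148 CPM in R/R 1 to 3 and 29100, 30125 and 36896 CPM in WT 1 to 3. WT 3 lay above R/R 1, so the groups overlapped in this sum. They did not in the sum of the alveolar macrophage genes, most of which came from Chil3. R/R 2, the lowest R/R lung for those genes, was the highest in this sum, most of which came from Scgb1a1 and Sftpc. Single epithelial genes differed in this. R/R 2 was the highest R/R lung for Scgb1a1, Sftpc, Lamp3, Ager, Hopx and Foxj1. It was the lowest R/R lung for Sftpb, Sftpa1, Abca3, Etv5 and Aqp5, as for the alveolar macrophage genes.

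The calls among the 10 genes rested on which lungs were included. Leaving out any 1 of R/R 1, R/R 2, R/R 3, WT 1 or WT 2 left none of the 10 called, although Chil3 stayed at an adjusted p under 0.1 in edgeR. Leaving out WT 3 left 7 called: Chil3, Ear2, Mrc1, Plet1, Krt79, Atp6v0d2 and Itgax. The calls over the whole table moved in the same direction. Without WT 3, 621 of 17444 genes tested were called, against 300 of 17120 with all lungs and 65 to 180 without any other 1 lung. All 10 fold changes stayed above 0 in each of these 6 fits, and their median stayed between 0.31 and 0.47.

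**Figure D4:**
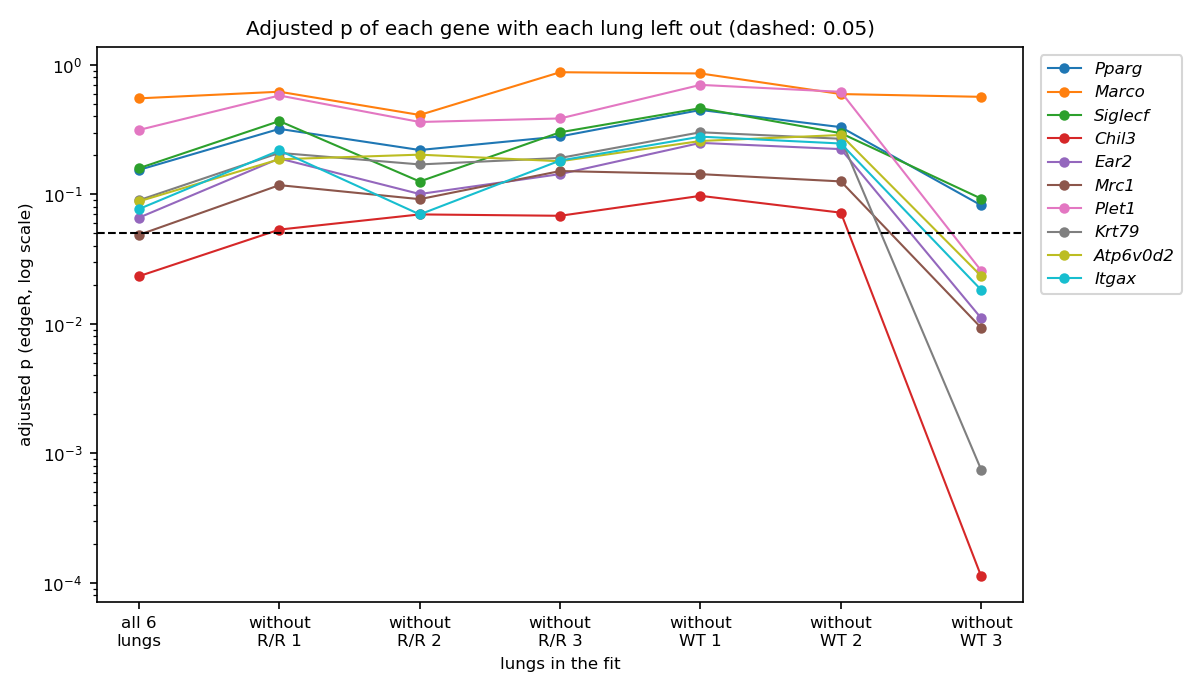
Adjusted p in edgeR (vertical axis, log scale) for each alveolar macrophage gene with all 6 lungs and without each of them; the dashed line is 0.05. Chil3 and Mrc1 are below the line with all lungs, none is below it without any 1 of 5 lungs, and 7 are below it without WT 3. Without WT 3, 621 of 17444 genes tested were called, against 300 of 17120 with all lungs.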

How the data were processed

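Lungs of 3 R/R mice and 3 WT mice were sequenced as 150-base pairs. The authors used HISAT2 2.1.0 with the mm10 (GRCm38) genome and counted pairs per gene with featureCounts and GENCODE M25. The file header gives featureCounts 2.0.1, and the supplement names another version. Per the file headers the counting ignored strand and left out pairs that mapped to several places. The deposited values are raw counts, whole numbers in all 6 columns. The authors made no expected counts: 1 column is recorded as such for a format reason only, and its deposited values are whole raw counts too. Of 56262 gene identifiers, 55141 matched a symbol. Genes were filtered with filterByExpr (minimum count 10, minimum total 15) and tested with edgeR 4.0.16 (R 4.3.3; TMM, glmQLFTest, Benjamini-Hochberg adjustment); the scripts were tested on simulated data. DESeq2 1.42.0 and limma-voom 3.58.1 were alternatives. A prior count of 0.5 was used for log2 CPM, and TPM used the counted exon length. Libraries of one group differed by more than sampling noise (chi-square per degree of freedom 5.22 to 8.31). The sources state 3 biological replicates per group and littermates.

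The 10 genes and the other lists were chosen with earlier results of these data known. Named were all 10 genes, the genes called in each other list, the 5 or 2 of highest TPM in each list, the copies of Ear2 and Chil3, and the 5 genes of most similar profile. Some further genes are marked above as named after their values were seen. The labels name a column kit for RNA extraction and the supplement Trizol. 1 gene of the monocyte list is not reported here. Column 6 of the table (gene length) holds no sample.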

Additional observations from a re-analysis of the deposited data

How the results depend on the processing

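All 10 alveolar macrophage genes kept a positive fold change in all 13 alternative fits, and their median log2 fold change ran from 0.31 to 0.47 over the fits that left out 1 lung and stayed at 0.38 or 0.39 in the other 7. The number called was less stable. Of the 10 genes, 2 were called, against 1 without TMM factors, with a filter of 1 CPM in 3 libraries, and in limma-voom, 5 in DESeq2 and 8 with no filter beyond 1 count in total. Chil3 was called in all 7 of the fits on 6 lungs and Mrc1 in 4 of them. Leaving out 1 lung gave 0 to 7 of the 10. Over all genes, 300 were called, against 541 in DESeq2 and 1109 with no filter, and 65 (without WT 1) to 621 (without WT 3) with 1 lung left out. In the other lists 6 genes were called, against 18 in DESeq2, 35 with no filter, and 1 to 15 with 1 lung left out. The cause was not tested.

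R/R and WT lungs share replicate numbers, but the deviations of same-numbered lungs from their group means had correlations of −0.014, −0.0028 and −0.015, so the numbers were not taken as pairs. With a replicate block, 446 genes, 5 of the 10 (Chil3, Ear2, Mrc1, Krt79 and Itgax) and 16 genes of the other lists were called.

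With 3 lungs a group, the adjusted p of the 10 genes ran from 0.0233 to 0.551, and Pparg, Marco and Krt79 had the fewest reads of the 10. Intervals cover the spread between these lungs only.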
